A study of Mus musculus with 4 samples.

Results

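The 10 genes described here code for DNA methylation machinery: the writers Dnmt1, Dnmt3a and Dnmt3b with the cofactor Dnmt3l, the erasers Tet1, Tet2, Tet3 and Tdg, and the readers Uhrf1 and Mbd2. Their members are the CpG cytosines that were covered in all 4 mice and that lay in the RefSeq body of one of the genes or within 3 kb of it on mm10. There were 1382 such cytosines of 1276597 common cytosines on the assembled chromosomes. Of these, 978 lay in a promoter (within 1000 bp of a curated transcription start), 333 in a gene body outside the promoters and 71 in the flanks. The rule itself uses gene names and coordinates and no methylation value.

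Methylation was measured in genomic DNA from frozen whole livers of 4 male mice aged 6 to 8 weeks on normal diet, with no treatment. The 2 Mixed mice (Mixed-1, Mixed-2) had a mixed background of unspecified make-up, partly C57BL/6J, and the 2 B6 mice (B6-1, B6-2) were pure Black-6. The strains were housed at different institutions, so strain, housing and sequencing depth cannot be told apart. In enhanced reduced representation bisulfite sequencing (ERRBS), the DNA was cut, per the labels, with MspI at CCGG. The paper's methods name no enzyme, and its discussion describes ERRBS in general as pairing MspI with TaqαI. The method keeps short fragments, converts unmethylated C to T and reads what remains C as methylated. It does not separate 5-methylcytosine from 5-hydroxymethylcytosine, and a bulk liver value averages over hepatocytes and all other cells.

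In mammals the maintenance enzyme DNMT1 copies methylation onto the new strand after replication, guided by UHRF1, which binds hemimethylated CpGs, while DNMT3A and DNMT3B place methylation on unmethylated DNA, with DNMT3L as a catalytically inactive partner in germ cells. The TET enzymes oxidise 5-methylcytosine, TDG excises its further oxidised forms, and MBD2 binds methylated CpGs and recruits repressors. CpG-rich promoters are usually unmethylated in every tissue whether or not the gene is used, and transcribed bodies are usually methylated. Several of these genes have a second start that is used mainly in oocytes, germ cells or embryonic cells: Dnmt1 has an oocyte start upstream of its somatic one, Dnmt3a has an internal start for the short DNMT3A2 form, and Dnmt3l has an oocyte start inside the neighbouring gene Aire.

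Summed coverage was 60654199 and 65176203 cytosine calls in the Mixed mice and 99215153 and 91886997 in the B6 mice, and mean coverage per cytosine ran from 44.2 to 63.7. The number of common cytosines per gene ran from 12 (Dnmt3l) to 368 (Dnmt3a), with a median coverage between 39.5 and 56 reads. Between 3.41% (Dnmt3l) and 20.8% (Uhrf1) of a gene's reference CpGs had a common cytosine, so most of each gene was not seen. Values below are means over cytosines in each mouse, then the mean ± SD over the 4 mice. CpGs above 80% are called hypermethylated and those below 20% hypomethylated.

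Most of the genes had a common pattern. The promoters of 9 of the 10 genes were hypomethylated in every mouse, and Dnmt3l was the exception. Over all genes with at least 5 common promoter cytosines, 12306 of 13285 promoters (92.6%) were below 20% in every mouse, so the members' share was near the background. The bodies of 7 genes were above 80% in every mouse, where 4236 of 10169 bodies of all genes (41.7%) were. The counts over all genes need at least 5 cytosines, and at that minimum the members were 9 of 9 promoters and 6 of 9 bodies. The 3 others were Dnmt3a, Tet1 and Tet2, and each of them held stretches of low or intermediate methylation that are described below. The body was more methylated than the promoter in 4 of 4 mice for all 10 genes, by 14.0 ± 9.69 percentage points (Dnmt3l) to 97.1 ± 2.78 points (Tdg, 2 body cytosines). For Dnmt3l, with 3 promoter cytosines, the order of the means over the 4 mice turned when cytosines not common to all mice were added (body 51.1% ± 23.5, promoter 72.8% ± 6.72). The mice then differ in which cytosines they hold. Mixed-2 gained none, and its body (86.3%) stayed above its promoter (63.6%). An exact sign-flip permutation test over the 4 mice gave p = 0.125 for each gene (Benjamini-Hochberg adjusted 0.125), which is the smallest two-sided p that 4 mice allow.

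**Figure D1:**
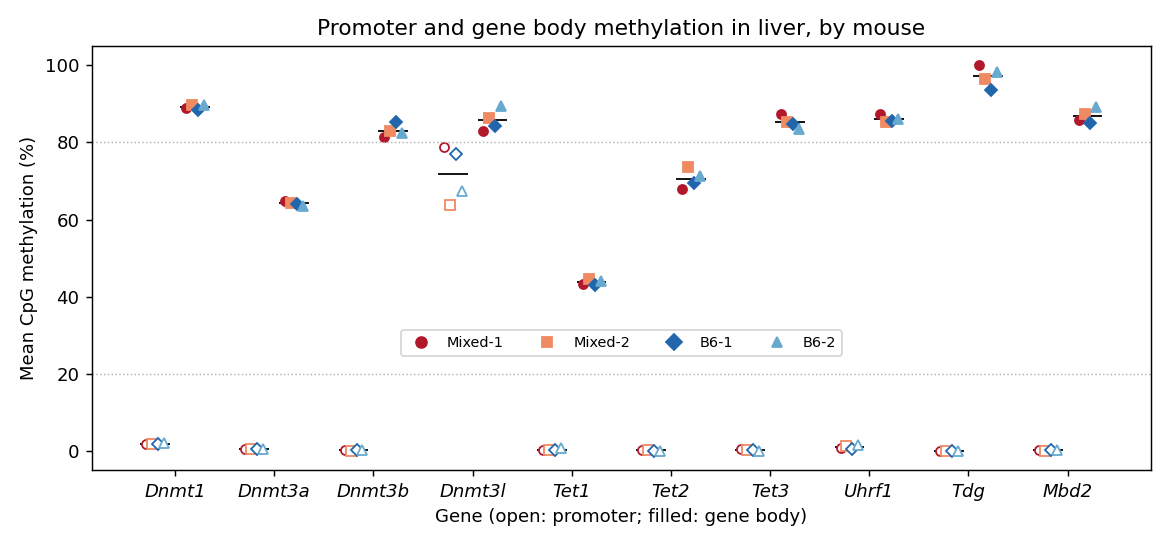
Mean CpG methylation (%) of the promoter (left of each pair) and body (right) of each gene, with 1 point per mouse and a bar at the mean of the 4 mice; dotted lines mark 20% and 80%. The promoters of 9 genes sit near 0 in every mouse, the Dnmt3l promoter sits between 63.6% and 78.8%, and the bodies of Tet1, Dnmt3a and Tet2 lie below the other bodies.

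Dnmt1, the maintenance methyltransferase (chr9:20907206-20959888, minus strand), read near 0 at its somatic start and high in the intron behind its upstream start. At the somatic start (position 20952979), 50 cytosines averaged 0.126%, 0.0864%, 0.108% and 0.214%, in the order Mixed-1, Mixed-2, B6-1, B6-2 that is kept for all values by mouse. All 50 were below 20%, and the highest was 1.58%. At the upstream start (position 20959888), which gives the transcript that skips the somatic first exon and starts its protein further inside (first coding base 20941454), only 1 cytosine lay within 1000 bp, 992 bp downstream of the start. It read 92.1%, 91.7%, 88.9% and 90.5% from 38, 48, 36 and 42 reads, and no mouse's 95% Wilson interval went below 74.7%. That cytosine belongs to a cluster of 5 in the intron behind the upstream start, which averaged 89.6%, 91.7%, 89.6% and 93.6% (91.1% ± 1.92). The upstream start, as read by its 1 cytosine, was higher than the somatic start by 90.7 ± 1.45 points in 4 of 4 mice (exact sign-flip permutation p = 0.125, adjusted over 4 pairs of starts 0.167), a difference far larger than the spread between mice. No common cytosine lay nearer, so the state of the upstream start itself was not seen. The cytosine read close to the mean of the Dnmt1 body (89.2%). The windows also differed in CpG content, with 28 reference CpGs in 2 kb at the upstream start and 75 at the somatic start. The 2 stretches are printed 5′ to 3′ on the transcribed (minus) strand of GRCm38.p6, with capitals at CpGs that have a common cytosine; the first is chr9:20958773-20958902 behind the upstream start, and the second is chr9:20952658-20952786, the first coding exon of the somatic form and the intron that follows.
Dnmt1 upstream: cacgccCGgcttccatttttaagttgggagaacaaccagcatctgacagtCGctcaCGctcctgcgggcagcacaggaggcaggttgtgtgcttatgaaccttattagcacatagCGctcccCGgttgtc
Dnmt1 somatic: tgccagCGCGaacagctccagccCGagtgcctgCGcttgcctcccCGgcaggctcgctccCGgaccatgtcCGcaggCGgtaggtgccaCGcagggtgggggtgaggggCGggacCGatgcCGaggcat
All 5 measured cytosines of the first stretch were hypermethylated (83.0% to 98.3%), whereas 13 of the 14 in the second read 0% in every mouse.

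The Dnmt1 promoter mean of 1.91% ± 0.0588 therefore rests on that single upstream cytosine, since the others were near 0. Its body (61 cytosines) averaged 89.0%, 89.7%, 88.5% and 89.8%, and 58 of the 61 were above 80%. The 4 mice spanned less than 2 points. In the order of all gene bodies, 78.0% of genes had a lower mean.

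Dnmt3a, a de novo methyltransferase (chr12:3806980-3914443, plus strand), had the most cytosines of the 10 genes. The start of the long form, DNMT3A1, lies in a large CpG island, and 289 cytosines there averaged 0.105%, 0.0514%, 0.0910% and 0.119%. The internal start of the short form, DNMT3A2 (position 3891744), read higher, at 7.03%, 8.26%, 8.37% and 8.68% over 16 cytosines (8.08% ± 0.725). Every mouse was above every mouse's value at the long-form start, and the difference was 7.99 ± 0.728 points in 4 of 4 mice (exact sign-flip permutation p = 0.125, adjusted 0.167). The start was not uniform. The 12 cytosines upstream of it averaged 3.66% ± 0.689, and the 4 downstream averaged 14.8%, 24.5%, 21.7% and 24.4% (21.3% ± 4.59). The highest, at position 3891930, read 29.6%, 37.5%, 26.5% and 33.3% from 27, 16, 68 and 63 reads, with Wilson intervals that together ran from 15.9% to 61.4%. The low upstream stretch is chr12:3891571-3891720, plus strand, which ends just before the start.
Dnmt3a2 upstream: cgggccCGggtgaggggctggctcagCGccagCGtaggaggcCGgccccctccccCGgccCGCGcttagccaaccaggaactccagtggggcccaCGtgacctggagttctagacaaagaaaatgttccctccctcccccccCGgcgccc
Within it, cytosines ran from 0% to 10.3%.

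The Dnmt3a body averaged 64.7%, 64.4%, 64.0% and 63.6% over 63 cytosines (64.2% ± 0.491). Only 29 of the 63 were above 80%, 26 lay between 20% and 80%, and 29.0% of all gene bodies had a lower mean. Many of the low values lay in an intron of the long form, about 20 kb before the DNMT3A2 start, where 10 cytosines at chr12:3871756-3871919 averaged 23.4%, 23.9%, 21.01% and 23.1% (22.8% ± 1.26). The values of single cytosines there ran from 2.22% to 48.0%. Together with 6 more at chr12:3865681-3867011 (33.02% ± 4.25) the stretch averaged 26.7% ± 2.24, against 76.9% ± 1.02 in the other 47 body cytosines. These stretches were chosen after their values were seen, so no test is given. The nearer one, chr12:3871750-3871925 on the plus strand, reads as follows.
Dnmt3a intron: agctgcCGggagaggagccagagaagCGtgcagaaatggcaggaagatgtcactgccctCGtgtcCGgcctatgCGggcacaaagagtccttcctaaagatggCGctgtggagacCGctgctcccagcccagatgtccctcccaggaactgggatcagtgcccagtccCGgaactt
The 4 mice differed by under 3 points in this stretch. It held intermediate values in every mouse.

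Dnmt3b, the other de novo methyltransferase (chr2:153649449-153687730, plus strand), has 1 annotated start. Its 126 promoter cytosines averaged 0.257%, 0.0445%, 0.204% and 0.252%, and none exceeded 2.76%. The body (15 cytosines) averaged 81.4%, 83.0%, 85.3% and 82.5%. The 4 cytosines of the upstream flank averaged 79.1% ± 3.71, so the low stretch ended between them and the start. Of the 15 body cytosines, 13 were above 80% and the other 2 were members of an unusual CCGG class described below, without which the body averaged 93.3%.

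Dnmt3l (chr10:78042287-78063622, plus strand) was the only one of the 10 whose promoter was not hypomethylated. Its oocyte start inside Aire had 3 common cytosines, 328 to 365 bp downstream, and they averaged 78.8%, 63.6%, 76.9% and 67.5% (71.7% ± 7.31). Their depth was low, with a median of 26.5 reads, and only 11 reads each in the Mixed mice at the highest of them (position 78042652, 100%, 81.8%, 93.3% and 83.3%). The 2 other starts, at 78049842 and 78055335, had no common cytosine within 1000 bp, and the nearest lay 7190 bp and 1956 bp away (89.6% and 82.4%). The body (6 cytosines) averaged 82.9%, 86.3%, 84.3% and 89.5%, and the flank (3 cytosines) averaged 78.8% ± 3.45. The turned order of the means given above came with 12 to 28 cytosines a mouse in the gene. All 12 common cytosines of Dnmt3l were thus above 20%, with the lowest at 53.0%. The oocyte-start cytosines lie in chr10:78042609-78042658, plus strand.
Dnmt3l oocyte start: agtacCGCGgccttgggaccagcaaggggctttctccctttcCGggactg
The window of this start holds 34 reference CpGs in 2 kb, against 255 at the Dnmt3a long-form start.

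**Figure D2:**
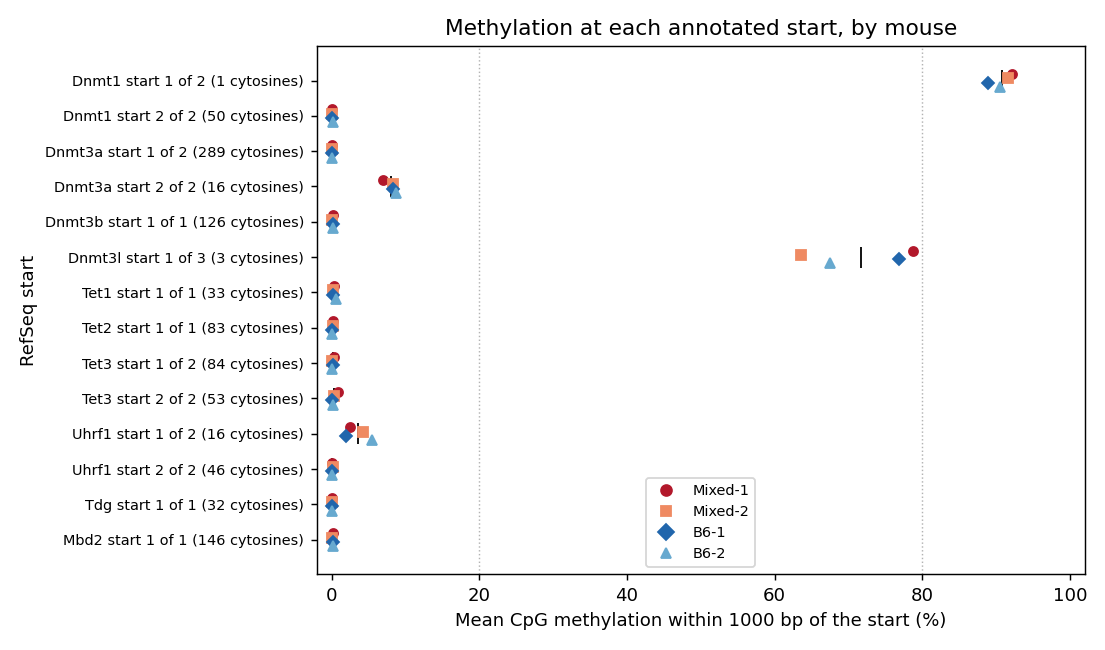
Mean CpG methylation (%) within 1000 bp of each annotated start that had a common cytosine, with 1 point per mouse; dotted lines mark 20% and 80%. The Dnmt1 upstream start (1 cytosine) and the Dnmt3l oocyte start (3 cytosines) lie above 60% in every mouse, the Dnmt3a internal start between 7.03% and 8.68%, and the other starts at or below 5.47%.

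Over the 10 genes there were 16 start groups, of which 14 had a common cytosine and 12 were below 20% in every mouse. The exceptions were the oocyte starts of Dnmt1, read by 1 cytosine 992 bp away, and of Dnmt3l, read by 3 cytosines. The internal start of Dnmt3a, which is used in embryonic and germ cells, was among the 12.

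Tet1, an eraser with a CXXC domain that binds CpG-rich DNA (chr10:62804570-62887324, minus strand), had a promoter of 0.369%, 0.175%, 0.208% and 0.657% over 33 cytosines. With promoters of 1000 bp on each side, its body was the least methylated of the 10, at 43.4%, 44.5%, 43.1% and 44.1% over 46 cytosines (43.8% ± 0.639). Of all gene bodies, 17.3% had a lower mean. The rank among the 10 depends on the promoter width. With 500 bp on each side, the bodies of Dnmt3a (29.996%) and Mbd2 (35.6%) averaged less than that of Tet1 (40.3%). The first 17 body cytosines, which lie just past the promoter window at chr10:62885904-62886307, averaged 1.82%, 1.24%, 2.27% and 1.25%. They continue the low stretch of the start, and the other 29 body cytosines averaged 68.5% ± 1.29. Even those were not uniform. A stretch of 9 cytosines in the first exon of predicted transcripts (chr10:62865136-62868954) averaged 35.6%, 35.1%, 35.0% and 35.2% and ran from 0% to 81.2%. A pair of neighbouring cytosines in a coding exon, at 62832940 and 62832962, read 28.7% and 37.2%. These places were picked after their values were seen.

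Tet2 (chr3:133463677-133544390, minus strand), the eraser often mutated in blood cancers, had a promoter of 0.148%, 0.193%, 0.103% and 0.0529% over 83 cytosines, none above 1.30%. The body averaged 67.8%, 73.6%, 69.4% and 71.2% over 20 cytosines. It divided by feature: the 12 cytosines in coding exons averaged 92.1% ± 1.18, and the 8 in introns, all at chr3:133533475-133534282 about 10 kb past the start, averaged 32.3%, 43.0%, 36.2% and 40.4% (38.0% ± 4.73). The intron mean was below the exon mean in all 4 mice, although single cytosines overlapped (the highest intron one was at 74.6%). The part of that intron with the lowest values, chr3:133534145-133534288, is printed on the minus strand.
Tet2 intron: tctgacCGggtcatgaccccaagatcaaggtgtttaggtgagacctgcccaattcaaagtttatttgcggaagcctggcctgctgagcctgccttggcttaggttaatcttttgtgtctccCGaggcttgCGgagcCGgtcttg
Its 4 measured cytosines ran from 14.4% to 28.7%. The stretch was chosen after its values were seen.

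Tet3 (chr6:83362373-83456392, minus strand), the TET enzyme known from the zygote, had low methylation at both of its starts. The long form's start averaged 0.385%, 0.0472%, 0.174% and 0.0301% over 84 cytosines, and the start of the short form, which lacks the CXXC domain, averaged 0.824%, 0.318%, 0.0692% and 0.221% over 53. The difference of 0.199 ± 0.227 points was smaller than its spread, with 3 of 4 mice in that direction (exact sign-flip permutation p = 0.25). The body averaged 87.3%, 85.3%, 84.7% and 83.4% over 77 cytosines, and the 52 in coding exons averaged 91.3%. A stretch of the last exon where the coding sequence ends was lower. Its 13 cytosines at chr6:83368002-83368127, 6 coding and 7 in the 3′ untranslated part, read 76.0%, 64.9%, 63.7% and 56.7% (65.3% ± 7.99), against 89.2% ± 0.3498 in the other 64 body cytosines. In this stretch both Mixed mice lay above both B6 mice, by 10.3 points on average. The gap between Mixed-2 and B6-1 was smaller than that between the 2 Mixed mice. The 13 cytosines lie within 126 bp and are not replicates. The stretch was chosen after its values were seen, so no test is given.

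Tdg, the glycosylase that removes oxidised methylcytosine (chr10:82629838-82650799, plus strand), had the lowest promoter of the 10. Its 32 cytosines averaged 0% in Mixed-1, Mixed-2 and B6-2 and 0.0422% in B6-1, and only 0.625% of all promoters had a lower mean. These values rest on 928, 1148, 2163 and 1715 cytosine calls, and incomplete conversion was not corrected for. Ranks at values this low therefore carry little weight. Its 2 body cytosines averaged 100%, 96.4%, 93.6% and 98.3%.

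Uhrf1, the reader of hemimethylated CpGs (chr17:56303337-56323486, plus strand), had 2 low starts with an uneven stretch upstream. Its promoter averaged 0.744%, 1.27%, 0.505% and 1.46% over 62 cytosines. The 46 cytosines at the second start averaged 0.109% ± 0.0870, while the 16 at the first start averaged 2.51%, 4.29%, 1.90% and 5.47% (3.54% ± 1.64). The first start was higher by 3.43 ± 1.61 points in 4 of 4 mice (exact sign-flip permutation p = 0.125, adjusted 0.167). The excess lay in 6 cytosines at chr17:56302816-56302866, about 0.5 kb upstream, at 5.86%, 11.5%, 3.21% and 14.4%. A pair of the 6 belongs to the CCGG class described below and reads low, and without it the other 4 averaged 7.41%, 17.2%, 4.82% and 21.7% (12.8% ± 7.97), which is above 20% in B6-2. The 10 cytosines nearer the start averaged 0.424% ± 0.507. Mixed-2 and B6-2 were the higher mouse of their strain, so the spread ran within the strains. The stretch is chr17:56302810-56302872, plus strand.
Uhrf1 upstream: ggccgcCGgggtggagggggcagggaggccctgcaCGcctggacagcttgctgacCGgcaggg
The body (23 cytosines) averaged 87.3%, 85.3%, 85.6% and 86.1%, with 21 of 23 above 80%. In the downstream flank, 53 cytosines averaged 0.0999% and belong to the start of the neighbouring gene Kdm4b, a histone demethylase.

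Mbd2, the methyl-CpG reader of the NuRD complex (chr18:70568292-70626131, plus strand), had a promoter of 0.139%, 0.104%, 0.170% and 0.184% over 146 cytosines. The low stretch reached 919 bp into the gene, and the first cytosine above 80% lay 5366 bp in. The body averaged 85.9%, 87.3%, 85.0% and 89.1% over 20 cytosines, of which 17 were above 80%.

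**Figure D3:**
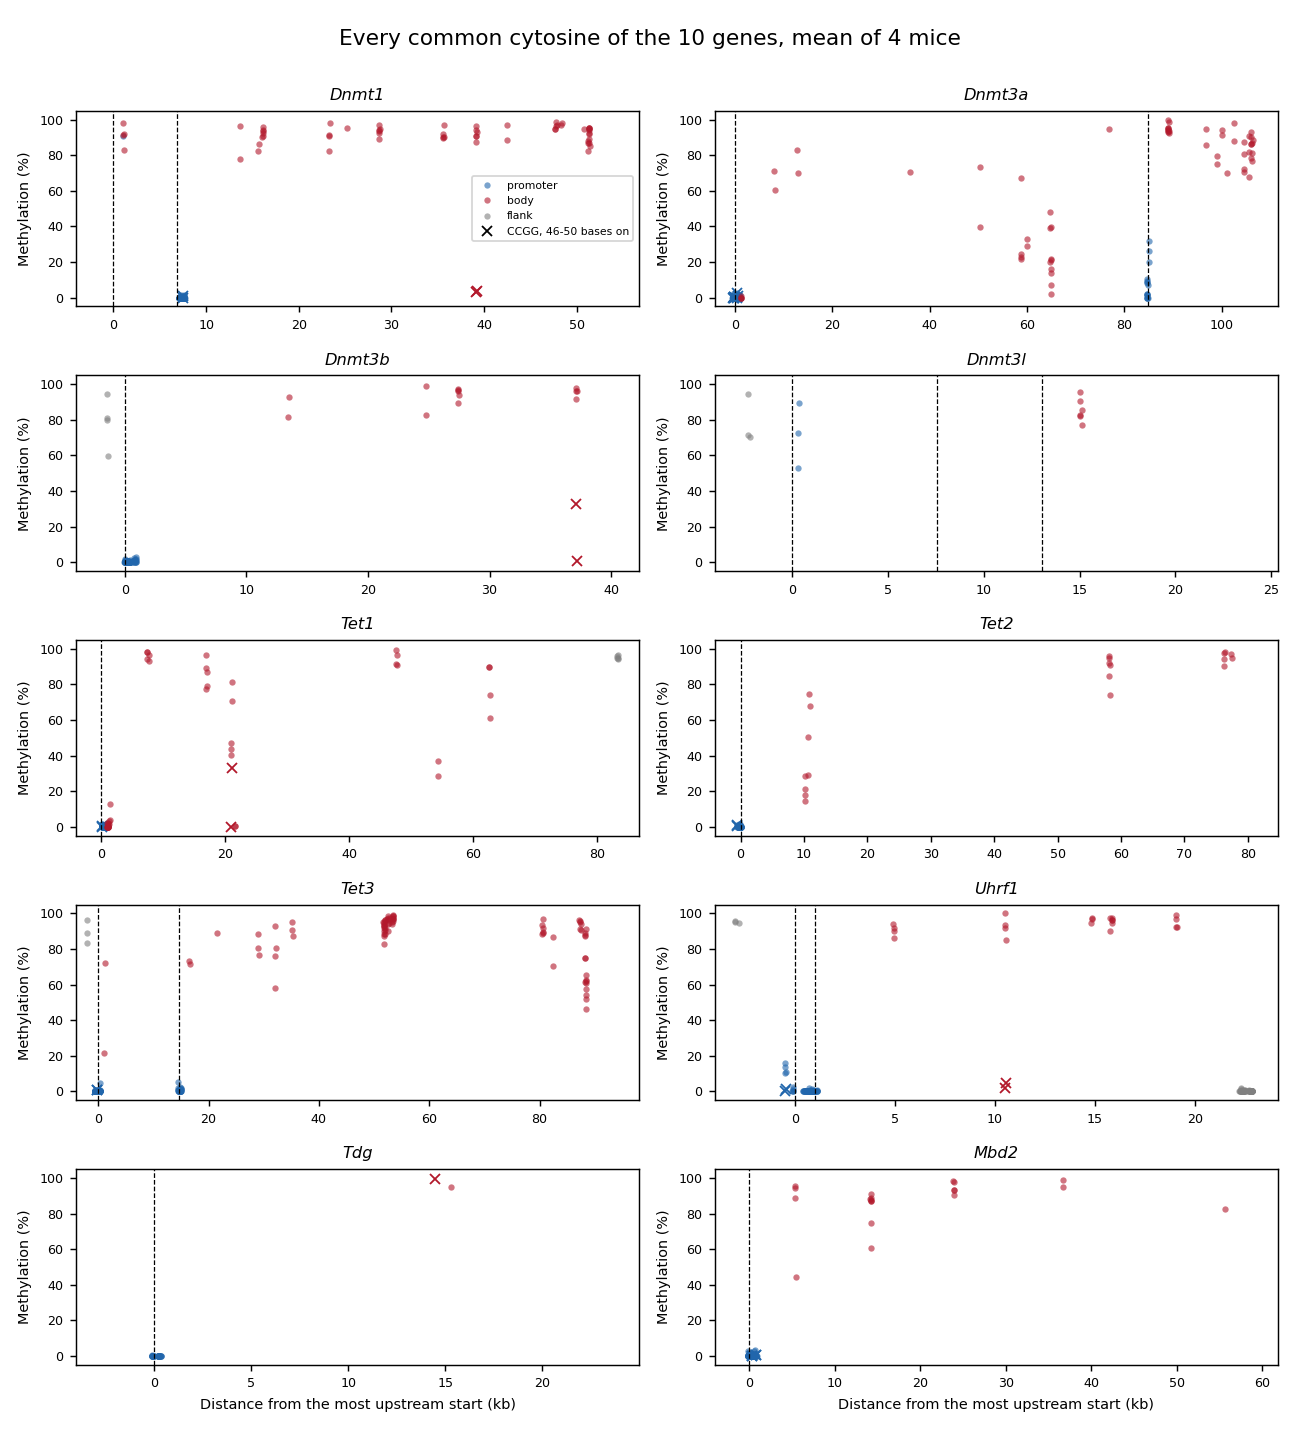
Every common cytosine of the 10 genes, as the mean methylation (%) of the 4 mice against the distance (kb) from the most upstream start in the direction of transcription. Dashed lines are annotated starts, colours mark promoter, body and flank, and crosses mark CCGG cytosines 46 to 50 bases from the preceding CCGG. Values near 0 gather at the starts, and intermediate values at 58 to 65 kb in Dnmt3a, at 10 kb in Tet2 and in the last exon of Tet3, near 88 kb.

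Over all 10 genes, between 76.5% and 77.2% of the 1382 cytosines of a mouse were hypomethylated and between 17.2% and 17.6% were hypermethylated. These shares follow the mix of regions covered. The 978 promoter cytosines were 99.0% to 99.5% hypomethylated, and the 333 body cytosines were 66.4% to 68.5% hypermethylated. Shares over all common cytosines are not given here, so the values are not a comparison with other genes. The 226 cytosines in 5′ untranslated exons averaged 0.541%, the 211 in coding exons 49.2%, the 571 in introns 21.2% and the 40 in 3′ untranslated exons 76.6%. The coding-exon mean joined 97 hypomethylated and 107 hypermethylated cytosines. Of the 97, 88 were in Mbd2, whose 89 coding-exon cytosines averaged 1.08%. Of the 571 intron cytosines, 421 were hypomethylated.

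Both strands of a CpG are normally methylated alike. In the 10 genes, 310 CpGs had both cytosines measured, and the strands differed by 2.95 to 3.09 points on average in a mouse. At 6 CpGs (1.94%) they differed by over 50 points. All 6 had 1 cytosine in a CCGG whose preceding CCGG on the same strand lay 46 to 50 bases away, which is close to the read length of 50 cycles. Without such cytosines, 283 CpGs differed by 1.02 to 1.16 points and none by over 50. The same held over all common cytosines, where 5588 of 251976 CpGs (2.22%) differed by over 50 points and 52 of 235605 (0.0221%) did without that class.

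**Figure D4:**
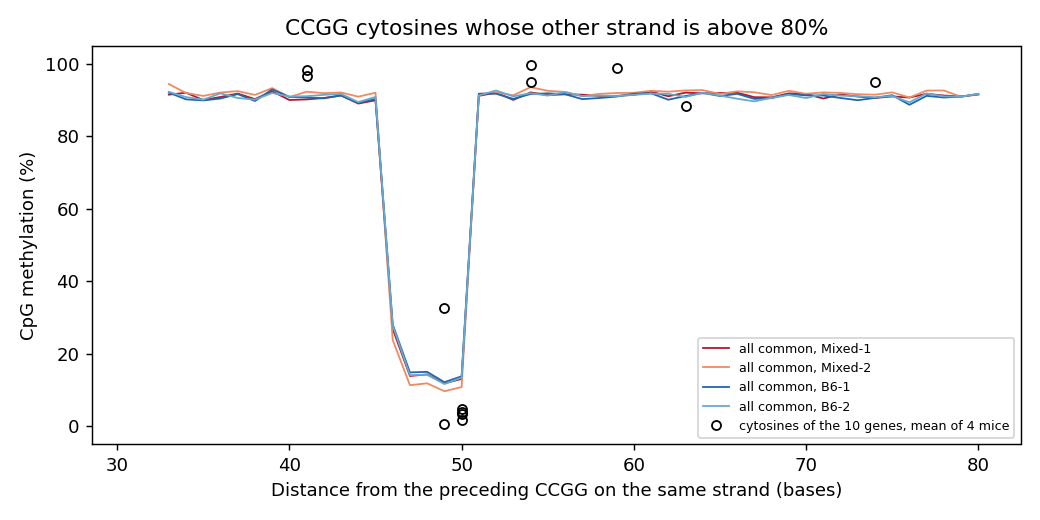
CpG methylation (%) of CCGG cytosines whose opposite strand is above 80%, against the distance (bases) from the preceding CCGG on the same strand. Lines are means over all common cytosines in each mouse, and circles are single cytosines of the 10 genes. Lines stay near 91% except from 46 to 50 bases, where they fall below 30% in every mouse.

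Where the other strand was above 80%, 5087 cytosines of this class averaged 13.7% and 78.7% of them were hypomethylated, while CCGG cytosines 33 to 45 bases and 51 to 60 bases away averaged 91.1% and 91.6%. The class held 19642 common cytosines (1.54%) and 32 of those in the 10 genes. Among members, the Dnmt1 pair at chr9:20920701-20920762, in an intron, is printed on the minus strand with capitals at the pair.
Dnmt1 CCGG pair: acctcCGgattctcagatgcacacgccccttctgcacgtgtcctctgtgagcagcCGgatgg
Its cytosines read 3.90% and 3.26% while the opposite strands of the same CpGs read 93.2% and 91.1%. A pair in a Uhrf1 intron (56313838 and 56313887) read 1.75% and 4.76%, against 91.8% and 85.2% on the other strands. In Dnmt3b the cytosines at 153686574 and 153686622, in the 3′ untranslated exon, read 32.6% and 0.595%, against 98.1% and 96.4%. Of the 9 class cytosines in bodies and flanks of the 10 genes, 6 were below 20%. Left out, the class moved the body means of Dnmt1 to 92.1%, Dnmt3b to 93.3%, Uhrf1 to 94.0% and Tet1 to 45.03%. The Tdg body, then left with 1 cytosine, moved the other way, from 97.1% to 94.8%. Leaving out the class kept 9 promoters below 20% and 7 bodies above 80%. The cause, and whether these reads show methylation of the genomic cytosine at all, was not tested.

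The comparison of Mixed with B6 asks whether strain or housing altered the methylation of these genes. No region of the 10 genes differed by limma's test on log2 ratios of methylated to unmethylated reads. With 9 promoters and 9 bodies of at least 5 cytosines tested, adjusted p ran from 0.619 to 0.989 for promoters and from 0.494 to 1.00 for bodies, adjusted over all genes. Over all genes, 0 of 13285 promoters (0%) and 0 of 10169 bodies (0%) passed an adjusted p of 0.05, with 1046 and 1361 at an unadjusted p under 0.05. Among the 18 member regions, 1 had an unadjusted p under 0.05 in limma, the Dnmt3a promoter (limma adjusted p = 0.619). Its log2 ratio, from reads pooled over the region, was -1.33 ± 0.36 (SE) in Mixed relative to B6. The pooled level was 0.283% and 0.232% in Mixed and 0.639% and 0.667% in B6. The unweighted mean over cytosines was under 0.6% in every mouse, and limma on its arcsine square root gave an unadjusted p of 0.546. An exact permutation of 2 mice against 2 cannot go below p = 0.333. The labels do not say that replicates share a litter or day, and the p-values of the permutation tests, limma and the site fit measure only the spread between these mice.

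At single cytosines, a logistic fit over all common cytosines with moderated overdispersion called 70 of 1276597 (0.00548%) at an adjusted p under 0.01 and a difference of at least 25 points, with 18 higher and 52 lower in Mixed. With a difference of at least 10 points it called 73 higher and 52 lower, so the more frequent direction turned. It called 0 without B6-1 and 0 without B6-2, 226 without Mixed-1 and 281 without Mixed-2. None of the 1382 member cytosines was called by the logistic fit, and 0 were called by limma on log2 ratios. In the logistic fit 10 members (0.724%) had an unadjusted p under 0.05, beside 25882 of the 1276597 common cytosines. Differences of at least 10 points were found at 40 member cytosines (2.89%), against 81843 (6.41%) of all common cytosines. Of the 1382 members, 978 were promoter cytosines, nearly all hypomethylated. The mix of regions was not matched, so these shares are no comparison with other genes. When the reads of each strain were summed and compared by Fisher's exact test, which takes no account of the spread between mice, it called 1613 of all common cytosines (0.126%) and 1 member.

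That member was the Dnmt3b cytosine at 153686574, in the CCGG class above, which read 16% and 11.4% in the Mixed mice and 54.1% and 48.9% in the B6 mice, from 50, 44, 61 and 88 reads. The strains did not overlap, and the Wilson intervals reached up to 28.5% in Mixed and down to 38.7% in B6. The difference was -37.8 points for Mixed relative to B6 (adjusted p 2.16e-06 by Fisher's exact test, 0.291 by the site fit). The next largest difference was at 83368007 in the last exon of Tet3, inside the stretch described above. It read 65.3% and 66.7% in Mixed against 48.0% and 37.5% in B6 (23.3 points, adjusted p = 1.00 by the site fit and 0.0594 by Fisher's exact test). The largest in Dnmt3a was an intron cytosine at 3819995, at 81.8% and 76.9% against 62.9% and 59.3%, but the Mixed values rest on 11 and 13 reads. In Mbd2 it was 70623989, at 70.8% and 76.9% in Mixed against 91.9% and 90% in B6. The Mixed values there rest on 24 and 13 reads. Its Wilson intervals reached up to 91.8% in Mixed and down to 81.5% in B6, so they overlapped. In Dnmt1 it was 20944236, where the higher Mixed value of 82.2% and 70% lay within a point of the lower B6 value of 95.9% and 82.7%. For the other 5 genes the largest difference between strain means ran in size from 3.16 points (Tdg) to 17.7 points (Dnmt3l), none with an adjusted p under 0.05 by the site fit.

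**Figure D5:**
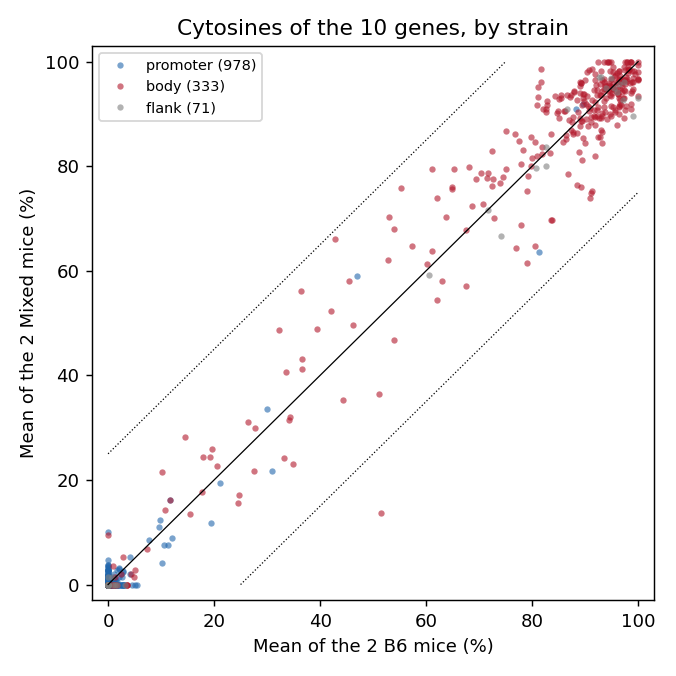
Mean methylation (%) of each member cytosine in the 2 Mixed mice against the 2 B6 mice. The solid line is equality and the dotted lines mark 25 points; 1 of the 1382 cytosines, the Dnmt3b cytosine that reads 13.7% in Mixed and 51.5% in B6, lies outside them.

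Other genes of the pathway, 55 in a list made by role, were read the same way. Of 48 with at least 5 promoter cytosines, 47 were below 20% in every mouse, beside 92.6% of all promoters (median 0.163%, against 0.290% over all genes). That share is near the background. The 47 included 9 of 9 readers, 7 of 7 CXXC proteins, 5 of 5 maintenance genes, 8 of 8 repair and deamination genes, 5 of 5 histone partners and 9 of 9 methyl donor genes. The exception was Zfp42, an embryonic stem cell gene, at 84.0%, 77.8%, 80.5% and 87.2% over 10 cytosines (82.4% ± 4.10). Of the bodies, 19 of 34 were above 80% in every mouse, beside 41.7% of all bodies (median 87.4%, against 78.8% over all genes), and they ran from 0.554% in Cxxc4 to 96.1% in Mbd5.

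Promoters of marker genes were read as a check on the tissue. All 5 measured germ cell promoters were above 20% (Dazl 40.5%, Ddx4 65.0%, Sycp3 74.6%, Mael 74.9%, Tex101 87.7%). Of 10 hepatocyte markers 3 were measured, with Apoa2 at 0.651%, Hnf4a at 28.7% and Fgb at 29.95%. The leukocyte marker Spi1, the only one of 6 measured, was at 77.7%, and Kdr of endothelium was at 1.71%. The stellate cell markers ran from 3.60% (Lrat) to 22.8% (Pdgfrb), and those of bile duct from 0.680% (Sox9) to 27.7% (Krt7). CpG-rich promoters are low in many cells that do not use the gene, so these values check the tissue weakly, and the labelled liver could not be tested further with 3 hepatocyte promoters.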

How the data were processed

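ERRBS libraries from 4 mouse livers (2 Mixed, 2 B6, grouped by title) were sequenced single-end for 50 cycles. The methods name BSMAP and the labels name Bismark and SAMtools, without versions, for mapping to mm10. Per the file headers, the authors deposited for each CpG cytosine and strand the coverage, an unnormalized count of reads with a minimum of 10, and the percent of reads that were C and T. Depth and intervals are given with the results, and intervals cover counting error only.

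Cytosines in all 4 files were placed on GRCm38.p6 with RefSeq. Every deposited cytosine fell on a CpG. Starts of curated transcripts within 500 bp were merged, and each cytosine was assigned to the nearest start. Methylated reads came from percent and coverage. Regions of at least 5 cytosines were tested with limma 3.58.1 on log2 ratios with 1 read added to each count. Cytosines were tested with a logistic model whose overdispersion was moderated with limma, with a prior from cytosines between 10% and 90% and a floor of 1. Differences within each mouse, between body and promoter or between starts, had exact sign-flip permutation tests. Their Benjamini-Hochberg adjustment was over the 10 genes or the pairs of starts. For the fits and Fisher's exact test it was over all regions of a kind or all common cytosines. Both fits were tested on simulated data. The cytosines named were the largest strain difference of each gene, the highest near a start where above 20%, and those called; stretches and the CCGG class were chosen after their values were seen. Members and lists were chosen with earlier results of these data known, and which starts act in oocytes or germ cells is background knowledge, not in the annotation. Of the pathway list, Dnmt3c was not analysed here. Alternatives covered coverage, strand merging, pooling, promoter width, start sets, site sets, tests, a replicate block and leaving out each mouse. A further alternative, leaving out the CCGG class, was chosen after seeing the data. Python 3.11.15, numpy 2.4.6, pandas 2.3.3, scipy 1.17.1, pysam 0.24.0, numba 0.67.0, matplotlib 3.10.9 and R 4.3.3 were used.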

Additional observations from a re-analysis of the deposited data

How the results depend on the processing

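Promoters below 20% in every mouse numbered 9 under every alternative but upstream promoters only, where they were 8 of the 8 with a promoter cytosine. The starts below 20% numbered 12 under those run for starts, which were the narrower window, strand merging, a coverage of at least 20, each mouse left out and the CCGG class left out. Bodies above 80% numbered 5 to 7, except with promoters taken as 1000 bp upstream only. That setting moves the low bases behind each start into the body by construction and left 0. Promoters of 500 bp on each side left 5. There the body mean fell from 86.8% to 35.6% in Mbd2 and from 83.1% to 40.6% in Dnmt3b. It fell from 64.2% to 29.996% in Dnmt3a and from 43.8% to 40.3% in Tet1, which was then not the lowest. The body means of Dnmt1, Dnmt3l, Tet2, Tet3, Uhrf1 and Tdg stayed about the same. The promoter was below the body in every mouse for 9 of 9 genes with a coverage of at least 20 and 8 of 8 with upstream promoters only. With all sites of each mouse it was 9 of 10 genes, and under the other alternatives 10 of 10. With all sites of each mouse the direction of the mean over the mice turned for Dnmt3l, whose body averaged 51.1% ± 23.5 and promoter 72.8% ± 6.72. It did not turn in Mixed-2, which gained no cytosine. With a coverage of at least 20, or with upstream promoters only, Dnmt3l had no promoter cytosine. Tet1 had none with upstream promoters only. The count of called cytosines over all common ones, 70 as reported, was 125 with a difference of at least 10 points, 1613 with Fisher's exact test and 0 with limma on log2 ratios. It ran from 0 without either B6 mouse to 281 without Mixed-2 (226 without Mixed-1), where the lone mouse is assumed to vary like the others. In the 10 genes it was 1 with Fisher's exact test and 0 under the other alternatives. The cause of these changes was not tested.

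The replicate numbers were not shown to pair the mice, since deviations of same-numbered mice correlated at -0.00514 in promoters, 0.000634 in bodies and -0.00249 at cytosines. With the replicate block the site fit called 0 cytosines, and limma called 0 promoters and 0 bodies. The Dnmt3l promoter value rests on 3 cytosines with a median of 26.5 reads.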

Other observations

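In the 10 genes, 1624 cytosines were covered in at least 1 mouse and 242 of these not in all. Of the 242, 104 were covered in both B6 mice only and 3 in both Mixed mice only. Tet3 had the most in B6 only (31), followed by Tet1 (23). The B6 libraries were the deeper ones, and whether sequence differences between strains add to this was not tested.

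Predicted transcripts give 7 further starts more than 1 kb from a curated one, and none had a common cytosine within 1000 bp. One of them, shared by 3 predicted Tet1 transcripts at 62868954, had its nearest common cytosine upstream of it, at 79.1%.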
